A study of Mus musculus with 42 samples.

Results

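Glucocorticoid-induced genes are transcripts that the ligand-bound glucocorticoid receptor is known to switch on in many tissues. 6 of them were examined here: Tsc22d3, Fkbp5, Dusp1, Sgk1, Zbtb16 and Klf9. They are 6 of the 47729 genes in the deposited table, found by their symbols, and all 6 passed the filter on low values (at least 10 in at least 3 libraries). They were selected on measured values of these same tumours: the 8 h minus 0 h difference on days 7 and 14, and the differences of BXCL701 from vehicle on days 1 and 14, are therefore given as descriptions, with no test. Their levels were followed in subcutaneous Pan02 tumours of mice given BXCL701 or vehicle.

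Glucocorticoids, corticosterone in mice, are adrenal steroid hormones. They enter the cell and bind the receptor encoded by Nr3c1, which releases its chaperones, moves to the nucleus and binds inverted repeats of a short DNA motif, the glucocorticoid response element. Its targets restrain inflammation, adjust metabolism and feed back on the receptor itself. Circulating corticosterone is released in a daily rhythm and in response to stress, so the same genes can follow time of day as well as treatment.

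Among the 6 genes, Tsc22d3 encodes GILZ, a leucine zipper protein that interferes with NF-kB and AP-1. Dusp1 encodes a phosphatase that inactivates MAP kinases, and it is also an immediate early gene that answers growth factor and stress signals. Fkbp5 encodes a co-chaperone that lowers the receptor's affinity for hormone, a negative feedback. Sgk1 encodes a kinase that regulates ion transport and cell survival, Zbtb16 encodes the zinc finger repressor PLZF, and Klf9 encodes a zinc finger transcription factor that is a well-known direct target of the receptor.

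The tumours came from Pan02, a mouse pancreatic adenocarcinoma line, grown under the skin of the right flank of C57BL/6 mice. BXCL701 is an oral inhibitor of dipeptidyl peptidases, also known as talabostat, and was given by gavage at 20 ug per mouse. Groups of 3 mice received 1 dose (day 1, harvest at 1, 8 or 16 h), daily doses for 7 days (day 7, harvest at 0, 1, 8 or 16 h) or daily doses for 14 days (day 14, the same 4 hours). Vehicle groups of 3 mice were harvested at 0 h on days 1, 7 and 14, so no vehicle tumour shares the 1, 8 or 16 h harvests, and for those hours treatment and hour of harvest cannot be told apart in a comparison with vehicle. Neither the clock time of harvest nor the relation of 0 h to the last dose was given in the sources used here. Each library came from its own mouse, and the sources used here give no age.

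The 42 libraries (33 BXCL701, 9 vehicle) had total deposited values between 19133149 and 26633378, and the true read depth is unknown. The ductal and simple epithelial keratins Krt8 and Krt18 were present in every library, at 9774 to 45922 for Krt8 and 4565 to 31584 for Krt18, whereas Epcam ranged from 1.67 to 269. Markers of tissues around the tumour varied between libraries: the mean log2 level of 14 skeletal muscle genes ran from 2.07 to 14.12, that of 10 adipocyte genes from 4.24 to 10.58, and that of 12 keratinocyte genes from 2.18 to 9.52. None of these genes was under 1 in every library. 4 libraries stood farthest out in an index of how a library's values depend on transcript length: vehicle day 1 replicate 2 (-0.37), vehicle day 7 replicate 2 (0.33), BXCL701 day 7 at 0 h replicate 2 (0.33) and BXCL701 day 7 at 8 h replicate 3 (-0.41). In RNA from whole tumours, fewer cells of a type and less RNA per cell cannot be told apart.

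Promoter sequence was available for 5 of the 6 genes. The 250 bases upstream of each RefSeq start (GRCm38.p6) were searched on both strands for 4 motifs: the glucocorticoid response element, which is AGAACA and TGTTCT with any 3 bases between them, its half-site AGAACA or TGTTCT, the cyclic AMP response element TGACGTCA and the E-box CACGTG. Capitals mark matches in the bases from -250 to -101, written 5′ to 3′ on the strand of the gene; these 4 stretches are shown because they set out how differently the members' proximal promoters are built.
Sgk1: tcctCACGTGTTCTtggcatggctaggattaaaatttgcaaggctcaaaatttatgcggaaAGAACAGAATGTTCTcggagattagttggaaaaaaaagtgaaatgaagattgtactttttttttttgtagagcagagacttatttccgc
Tsc22d3: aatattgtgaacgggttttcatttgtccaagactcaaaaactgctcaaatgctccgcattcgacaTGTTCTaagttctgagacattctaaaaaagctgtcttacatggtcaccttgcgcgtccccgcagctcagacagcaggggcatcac
Fkbp5: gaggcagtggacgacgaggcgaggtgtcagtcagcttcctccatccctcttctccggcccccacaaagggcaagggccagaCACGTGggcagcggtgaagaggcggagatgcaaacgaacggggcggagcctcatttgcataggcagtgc
Dusp1: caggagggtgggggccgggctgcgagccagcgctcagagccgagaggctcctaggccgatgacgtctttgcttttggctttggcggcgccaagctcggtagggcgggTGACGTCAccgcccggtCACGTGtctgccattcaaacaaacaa

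The Sgk1 stretch lies at chr10:21993640-21993789 (plus strand) before start 5 of its 6 listed starts, and holds a full response element that begins at -189 and a half-site at -242 to -237 that overlaps an E-box at -246 to -241. The Tsc22d3 stretch lies at chrX:140600623-140600772 (minus strand) before start 2 of its 3 listed starts, with 1 half-site that ends at -180. The Fkbp5 stretch, at chr17:28486250-28486399 (minus strand), holds 1 E-box, and the Dusp1 stretch, at chr17:26508573-26508722 (minus strand), holds a cyclic AMP response element that ends at -136 and an E-box that begins at -126. For Sgk1 and Tsc22d3 the start with the most matches is the one shown. Starts 2, 3 and 6 of Sgk1 and starts 1 and 3 of Tsc22d3 held none of the 4 motifs. Starts 1 and 4 of Sgk1 held a half-site each, and Klf9 held none of the 4 motifs in its 250 bases. Of 32851 mouse promoters searched the same way, 0.00913% held the full element, 16.1% a half-site, 1.55% the cyclic AMP response element and 6.02% the E-box. These shares are per promoter, not per best start of a gene. These are matches of letters, not sites shown to be bound.

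Per transcript length, Sgk1 was the most abundant of the 6 genes, with a mean of 70.3 FPKM over all libraries, followed by Fkbp5 at 48.8, Tsc22d3 at 38.9 and Dusp1 at 36.7 FPKM. Klf9 averaged 4.04 FPKM and Zbtb16 only 0.162 FPKM. The spread between mice of a group, as the residual SD on the log2 scale of the deposited values, was 0.32 for Tsc22d3, 0.29 for Fkbp5, 0.30 for Sgk1 and 0.40 for Dusp1, against 1.09 for Zbtb16 and 1.07 for Klf9. All values that follow are the deposited gene-level values unless given as FPKM. Where groups are said to overlap or not, this describes the values. The share of all genes that separate in the same way is not given.

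**Figure D1:**
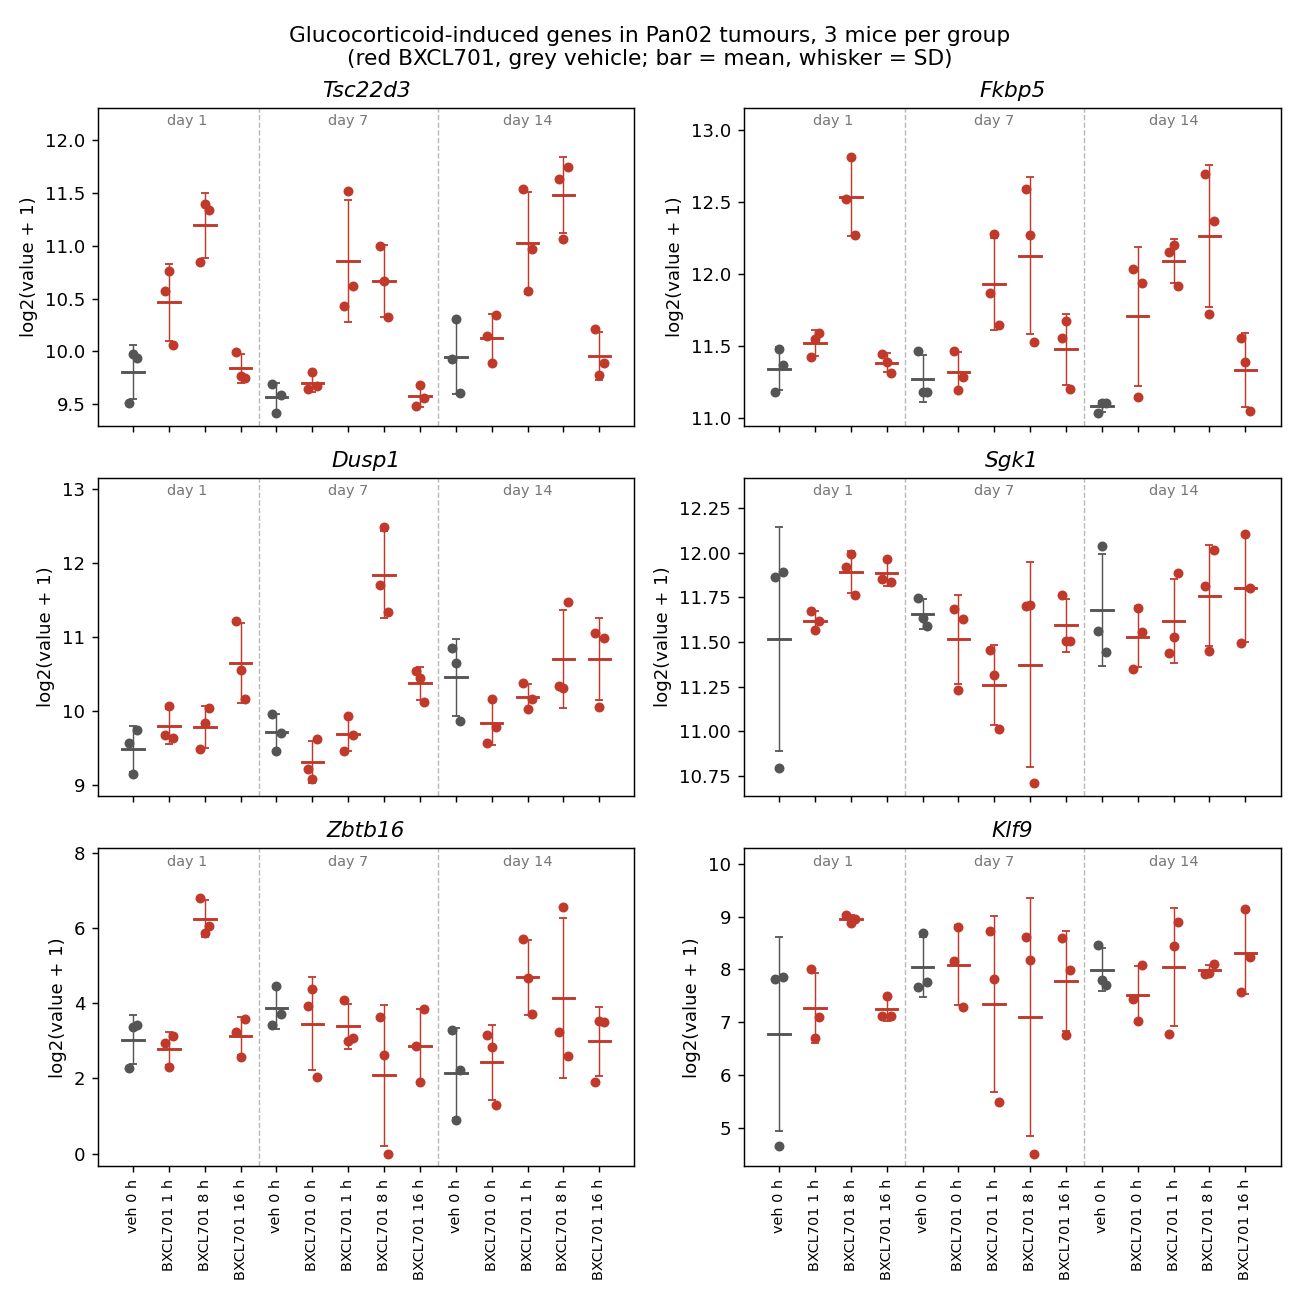
Levels of the 6 genes in each of the 42 libraries, as log2(deposited value + 1) on the vertical axis, with the 14 groups along the horizontal axis by day and hour. Points are mice, bars are group means and whiskers SD (n = 3). Tsc22d3 stands high at 1 and 8 h on each day, Dusp1 is highest at 8 h on day 7, Sgk1 stays within 0.63 log2 units, and Zbtb16 and Klf9 are highest at 8 h on day 1.

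Tsc22d3 was high in the 1 h and 8 h tumours of each day. On day 1 its values were 728, 1006 and 978 in vehicle tumours, 1519.6, 1734 and 1067 at 1 h, 1837, 2702 and 2586 at 8 h, and 1021, 873 and 861 at 16 h. On day 7 they were 824, 683 and 768 in vehicle tumours, 798, 893 and 815 at 0 h, 1379, 2932 and 1573 at 1 h, 2049.9, 1630.4 and 1282 at 8 h, and 716, 819.6 and 754 at 16 h. On day 14 they were 971, 1268 and 779 in vehicle tumours, 1130.0, 949 and 1299 at 0 h, 2973, 1525 and 2011 at 1 h, 3172, 2145 and 3429 at 8 h, and 1186, 875 and 947 at 16 h. Within each day, every 1 h and 8 h library read higher than every vehicle, 0 h and 16 h library of that day. Ordered by mean log2 value, the groups ran from 11.48 (day 14, 8 h) through 11.19 (day 1, 8 h), 11.03 (day 14, 1 h), 10.86 (day 7, 1 h), 10.67 (day 7, 8 h) and 10.46 (day 1, 1 h) to 10.13 (day 14, 0 h) and, last, 9.56 (vehicle, day 7). The step of 0.34 from day 1 at 1 h down to day 14 at 0 h was the 1 gap between neighbours, of 13, that exceeded the residual SD.

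Fkbp5 had its highest group mean at 8 h within each day, with the 1 h group next each time. Its day 1 values were 2324, 2853 and 2645 in vehicle tumours, 2745, 3003 and 3093 at 1 h, 5896, 7203 and 4951 at 8 h, and 2793, 2689.8 and 2549 at 16 h. The 8 h tumours of day 1 all lay above every other library of that day, while the 1 h tumours, unlike those of Tsc22d3, overlapped vehicle. On day 7 the values were 2827, 2319 and 2324 in vehicle tumours, 2836, 2350.3 and 2501 at 0 h, 3742, 4964 and 3204 at 1 h, 6161, 4942 and 2949.6 at 8 h, and 3014, 3266 and 2355 at 16 h. On day 14 they were 2102, 2202 and 2202 in vehicle tumours, 4194, 2271 and 3919.8 at 0 h, 4555, 4722 and 3873 at 1 h, 6625, 3386 and 5297 at 8 h, and 3016, 2684 and 2124 at 16 h. Every 0, 1 and 8 h library of day 14 exceeded every vehicle library of that day, and the 16 h libraries overlapped vehicle. None of the 13 gaps between neighbouring group means exceeded the residual SD.

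Dusp1 followed another course. On day 1 it read 759.7, 567 and 862 in vehicle tumours, 822, 1076 and 797 at 1 h, 717, 917 and 1051 at 8 h, and 2398, 1510.3 and 1144 at 16 h, so the late tumours were the high ones. On day 7 the values were 1002, 709 and 838 in vehicle tumours, 597, 542 and 792 at 0 h, 709, 981 and 821 at 1 h, 3349, 5745 and 2599 at 8 h, and 1499, 1399 and 1120.4 at 16 h. On day 14 they were 1852, 1614 and 933 in vehicle tumours, 763, 1146 and 883 at 0 h, 1335, 1049 and 1150.0 at 1 h, 1301, 1269 and 2843 at 8 h, and 2127, 1070.0 and 2034 at 16 h. The 8 h tumours of day 7 lay above all other libraries of that day, and their mean stood 1.14 log2 units above the next group, day 14 at 8 h. On day 14 the vehicle tumours overlapped every BXCL701 group. Dusp1 overlaps Ergic1, a protein-coding gene on the opposite strand with a mean value of 4460.0, and the sources used here do not say whether counting used strand.

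Sgk1, the most abundant member per length, varied least: its 42 libraries had a lowest value of 1672, a median of 3220.0 and a highest value of 4397. The 14 group means spanned 0.63 log2 units, against 1.92 for Tsc22d3, 1.46 for Fkbp5 and 2.53 for Dusp1. Day 1 at 8 h was the highest group, with 3874, 4077 and 3477, and day 7 at 1 h the lowest, with 2801, 2545 and 2066. The lowest single values, 1672 at 8 h on day 7 and 1773 in vehicle on day 1, came from replicates 3 and 2 of those groups, which had the lowest transcript-length indices (-0.41 and -0.37). No gap between neighbouring groups exceeded the residual SD of Sgk1.

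Zbtb16 was scarce, reaching a value of 10 in 17 of the 42 libraries. On day 1 it read 3.82, 9.31 and 9.72 in vehicle tumours, 6.63, 3.90 and 7.77 at 1 h, 111, 57.6 and 65.3 at 8 h, and 8.31, 4.95 and 10.98 at 16 h. All 3 tumours of 8 h stood far above the rest of that day, and their mean exceeded that of the next group, day 14 at 1 h, by 1.55 log2 units. On day 14 it read 8.72, 0.867 and 3.64 in vehicle tumours, 7.91, 6.11 and 1.42 at 0 h, 51.1, 24.2 and 12.1 at 1 h, 8.46, 92.9 and 5.06 at 8 h, and 2.77, 10.5 and 10.3 at 16 h. The single library at 92.9 (day 14, 8 h, replicate 2) had mean log2 levels of 12.43 for skeletal muscle genes and 9.88 for adipocyte genes, and the one at 51.1 (day 14, 1 h, replicate 1) had the highest of the series, 14.12 and 10.58. The 8 h tumours of day 1 had 10.16, 10.51 and 11.77 for muscle and 7.07, 6.76 and 6.92 for fat, both within the range of the other groups, but 9.52, 7.09 and 3.99 for the keratinocyte genes, of which 9.52 was the highest of the series. On day 7 Zbtb16 was 9.67, 20.9 and 11.996 in vehicle tumours, 14.0, 19.8 and 3.12 at 0 h, 15.8, 6.92 and 7.42 at 1 h, 11.4, 5.14 and 0 at 8 h, and 6.18, 2.76 and 13.5 at 16 h, and all groups overlapped.

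Klf9 also had its highest group at 8 h on day 1, with 520.4, 469 and 492. The other groups of day 1 read 224, 24.0 and 229 in vehicle tumours, 255, 103 and 136 at 1 h, and 137, 180.1 and 137 at 16 h, all below the 8 h tumours. On day 7 it read 202, 412 and 216 in vehicle tumours, 283, 444 and 155 at 0 h, 420.3, 223 and 43.6 at 1 h, 393, 289 and 21.8 at 8 h, and 386, 106 and 254 at 16 h, with all groups overlapping. On day 14 it read 350.4, 222 and 209 in vehicle tumours, 172, 129 and 272 at 0 h, 109, 346 and 478 at 1 h, 239.8, 245 and 273 at 8 h, and 189.8, 563 and 298 at 16 h, again overlapping. The 3 lowest Klf9 values, 21.8, 24.0 and 43.6, came from libraries with transcript-length indices of -0.41, -0.37 and -0.20, while the 8 h tumours of day 1 had 0.13, 0.15 and 0.10.

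**Figure D2:**
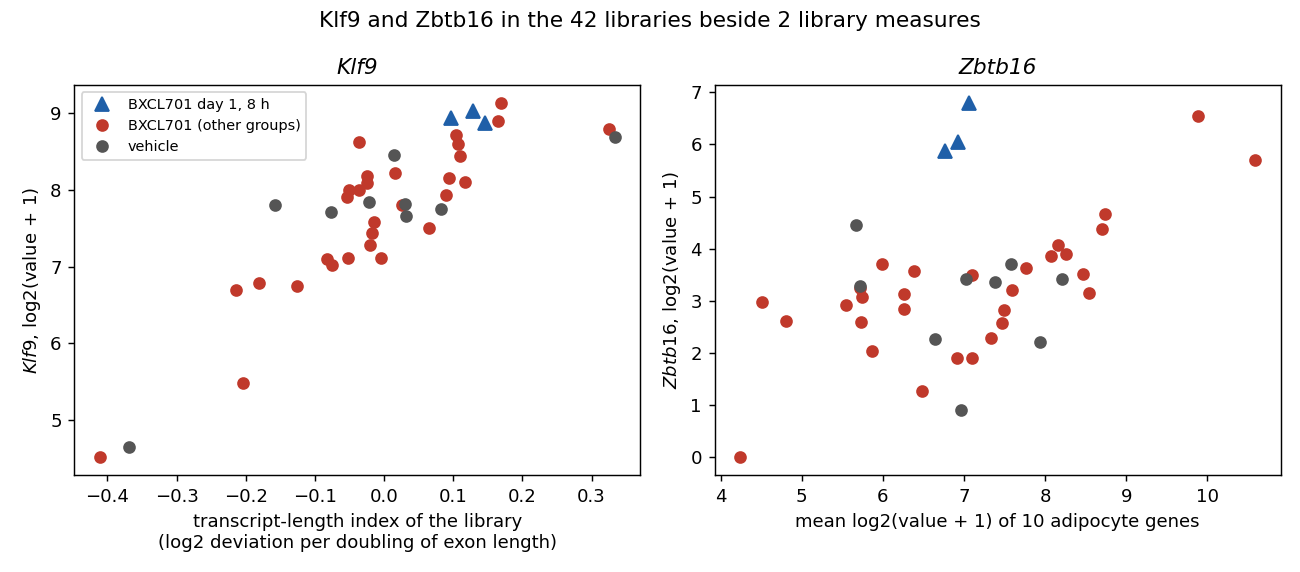
Each point is 1 of the 42 libraries, with log2(deposited value + 1) on the vertical axes. Left: Klf9 against the transcript-length index of the library; the libraries at -0.41 and -0.37 hold its lowest values. Right: Zbtb16 against the mean log2 level of 10 adipocyte genes; the 8 h tumours of day 1 (triangles) stand high at adipocyte levels of 6.76 to 7.07, and the libraries at 9.88 and 10.58 are the 2 other high ones.

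At 1 h on days 7 and 14, Tsc22d3 was the 1 member that passed the threshold relative to 0 h, and it was higher. It averaged 10.94 at 1 h and 9.92 at 0 h on the log2 scale, a difference of 1.03 ± 0.18 (SE, 6 mice at each hour; limma with Benjamini-Hochberg adjustment over 16613 genes, adjusted p = 0.0309), or 2.04-fold. All 6 libraries of 1 h exceeded all 6 of 0 h. The only other gene of all those tested that passed was Nr4a3, an immediate early nuclear receptor, so 0.012% of genes were called higher against 1 of 6 members; the call on Nr4a3 was lost in 9 of 12 fits with 1 library left out. The other members did not pass: Fkbp5 differed by 0.50 ± 0.16, Dusp1 by 0.37 ± 0.22, Zbtb16 by 1.10 ± 0.61, Sgk1 by -0.08 ± 0.17 and Klf9 by -0.11 ± 0.59, with Fkbp5 at an unadjusted limma p of 0.00494. 2 of the 6 members had an unadjusted p under 0.05, against 2.44% of all genes. The median difference of the 6 members was 0.43, and that of all genes was -0.02.

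The call on Tsc22d3 at 1 h rests close to the threshold. The 0 h libraries also entered the 8 h comparison that was known when the members were chosen. The day 14 libraries of 0 h and 1 h entered the day 14 comparison with vehicle, which was known then too. Leaving out 1 library at a time kept the difference between 0.86 and 1.14 and the limma adjusted p between 0.0106 and 0.173, and the call was lost without day 7 at 0 h replicate 1 (0.0902) or replicate 3 (0.161), day 7 at 1 h replicate 2 (0.151), day 14 at 0 h replicate 1 (0.114) or replicate 2 (0.138), and day 14 at 1 h replicate 1 (0.173) or replicate 3 (0.0575). The skeletal muscle list had mean log2 levels of 5.55 to 14.12 in the 1 h libraries and 2.26 to 10.64 in those of 0 h, and with the muscle, adipocyte and keratinocyte lists as covariates the Tsc22d3 difference was 0.98 (adjusted p = 0.173).

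At 16 h on days 7 and 14, Dusp1 was the member that differed most from 0 h. None of the 6 passed (0.00602% of all genes did, a single gene, Fos, which encodes an AP-1 subunit). Dusp1 averaged 10.54 at 16 h and 9.58 at 0 h, a difference of 0.96 ± 0.22 with an unadjusted limma p of 0.000156 and an adjusted p of 0.432; it was the 1 member at an unadjusted p under 0.05, against 2.29% of genes. Tsc22d3 differed by -0.15 ± 0.18, Fkbp5 by -0.11 ± 0.16, Sgk1 by 0.17 ± 0.17, Zbtb16 by -0.01 ± 0.61 and Klf9 by 0.25 ± 0.59. Split by day, the sign differed between days 7 and 14 for Zbtb16 (-0.57 and 0.56), Klf9 (-0.30 and 0.80) and Fkbp5 (0.16 and -0.37). For the other members it was the same on both days. The comparison shares its 0 h libraries with the 1 h one. Its day 14 libraries also entered the day 14 comparison with vehicle that was known when the members were chosen.

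After a single dose, Tsc22d3 and Fkbp5 fell between 8 and 16 h. Tsc22d3 averaged 9.84 ± 0.14 at 16 h and 11.19 ± 0.30 at 8 h (SD, n = 3 mice each), a difference of -1.35 ± 0.25 (SE; limma with Benjamini-Hochberg adjustment, adjusted p = 0.0127), to 0.391 of the 8 h level. Fkbp5 averaged 11.39 ± 0.07 at 16 h and 12.54 ± 0.27 at 8 h, a difference of -1.15 ± 0.23 (adjusted p = 0.0232), to 0.450 of the 8 h level. For both genes, all 3 libraries of 16 h lay below all 3 of 8 h, a description without the share of all genes that separate so. Of all genes tested, 0.0662% were called lower and 0.108% higher, against 2 of 6 members lower and none higher.

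Zbtb16 differed by -3.12 ± 0.87 (limma adjusted p = 0.162) and Klf9 by -1.71 ± 0.83 (adjusted p = 0.438) between 16 and 8 h of day 1, and neither passed. Dusp1 lay on the other side, at 0.86 ± 0.32 (adjusted p = 0.313), and Sgk1 at -0.01. 5 of the 6 members had an unadjusted p under 0.05, against 11.4% of all genes, and the members' median was -1.25, against 0.00 for all genes. The 8 h and the 16 h libraries were both part of the day 1 comparison with vehicle whose result was known when the members were chosen. The differences and calls between these hours are therefore not independent of that choice.

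Both calls on day 1 depended on single mice. Without 8 h replicate 2 or 3, or 16 h replicate 1 or 2, neither gene passed; without 8 h replicate 1 (adjusted p = 0.018) or 16 h replicate 3 (0.0442), Tsc22d3 passed and Fkbp5 did not. The differences kept their direction, -1.53 to -1.25 for Tsc22d3 (limma adjusted p between 0.018 and 0.105) and -1.28 to -1.01 for Fkbp5 (0.0745 to 0.216). The summed level of the 14 muscle genes was 1391 to 21097 at 16 h and 24837 to 70277 at 8 h, and with the tissue lists as covariates both genes still passed, at -1.43 for Tsc22d3 and -1.35 for Fkbp5.

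Other lists, also chosen with earlier results of these data known, moved in the same comparison. Of 16 circadian clock genes, Dbp, Nr1d1 and Per1 were called lower at 16 h than at 8 h and none higher, with 13 lower, 3 higher and a median of -0.73. Of 12 neutrophil markers, S100a8 and S100a9 were called higher, all 12 lay higher with a median of 0.84, and their summed level was 3088 to 6469 at 16 h and 1687 to 2204 at 8 h. Of 12 keratinocyte markers, 11 of them tested, none passed, but 10 lay lower with a median of -2.72, and their summed level was 1739 to 4169 at 16 h and 716 to 21309 at 8 h. The part of the clock genes and neutrophils in the Tsc22d3 and Fkbp5 differences was not tested, and the keratinocyte list was among the tissue covariates.

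From 1 to 8 h of day 1 no member passed, and no gene did (0.0%); 12.3% of genes had an unadjusted limma p under 0.05, and so did 3 of the 6 members. Fkbp5 averaged 12.54 at 8 h and 11.52 at 1 h, a difference of 1.01 ± 0.23 (adjusted p = 0.301). Zbtb16 differed by 3.46 ± 0.87 (adjusted p = 0.327), Klf9 by 1.68 ± 0.83 (0.406) and Tsc22d3 by 0.73 ± 0.25 (0.399). Dusp1 (-0.01) and Sgk1 (0.27) were close to 0. In a fit of the 6 libraries of this comparison alone, Fkbp5, Zbtb16 and Klf9 passed (limma adjusted p = 0.029, 0.0278 and 0.029). So did 2431 of the 16613 genes tested. Both hours were part of the day 1 comparison with vehicle that was known when the members were chosen. Once the fit of all 42 libraries included the transcript-length index, the Klf9 difference was 0.03 (limma adjusted p = 0.988). The 12 keratinocyte markers had a summed level of 716 to 21309 at 8 h and 1122 to 12712 at 1 h, and 10 of the 11 tested lay higher at 8 h with a median of 2.38.

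**Figure D3:**
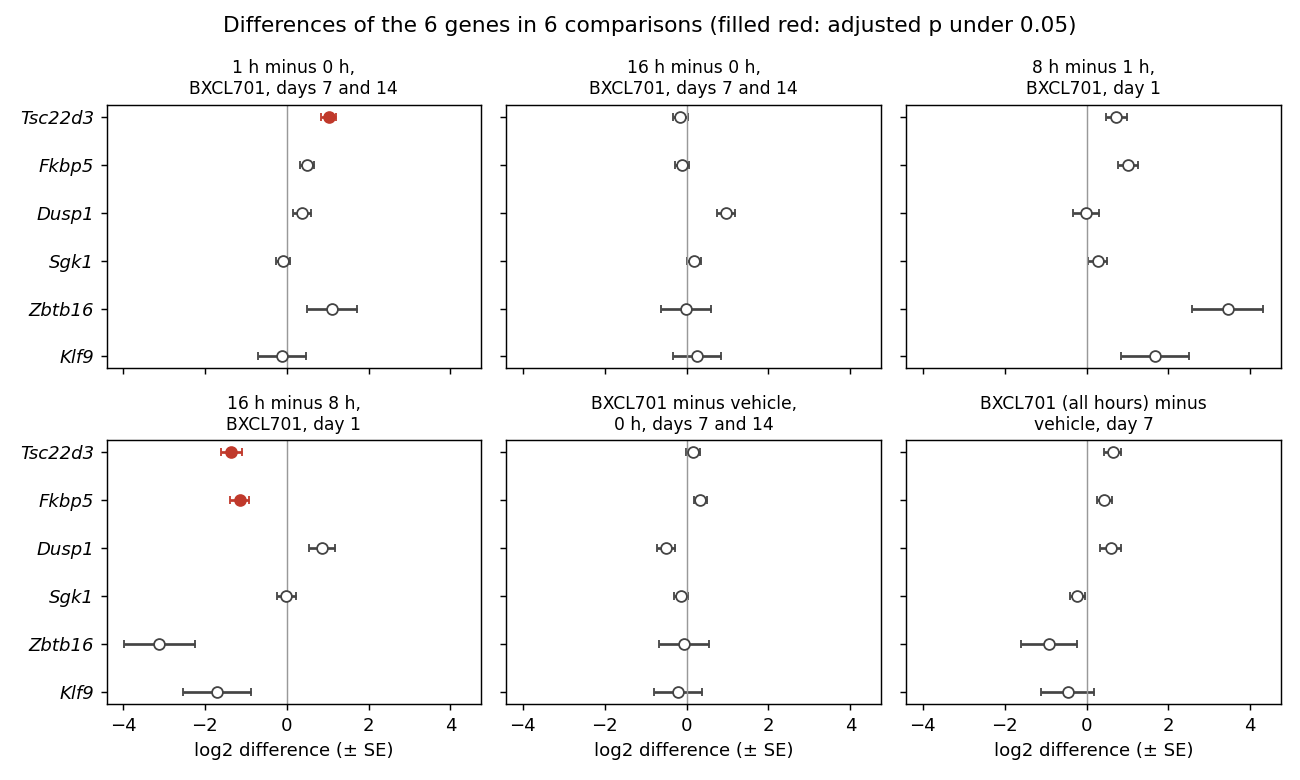
Log2 difference of each of the 6 genes (± SE from limma) in 6 comparisons, on a shared horizontal axis. Filled red points passed an adjusted p of 0.05: Tsc22d3 at 1 h on days 7 and 14 (1.03), and Tsc22d3 (-1.35) and Fkbp5 (-1.15) between 16 and 8 h of day 1. All 6 comparisons, and so the red points, use libraries of comparisons whose results were known when the members were chosen. The widest whiskers belong to Zbtb16 and Klf9.

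Between 8 and 0 h on days 7 and 14, the comparison by which the members were known, Dusp1 differed by 1.70, Tsc22d3 by 1.16, Fkbp5 by 0.68, Zbtb16 by 0.18, Sgk1 by 0.04 and Klf9 by -0.25. These values are a description, with 0.132% of all genes past the threshold and 9.16% at an unadjusted p under 0.05. Taken day by day, the Dusp1 difference was 0.87 on day 14 and 2.53 on day 7, that of Tsc22d3 1.35 and 0.96, and that of Fkbp5 0.56 and 0.81. The sign differed between days 14 and 7 for Zbtb16 (1.71 and -1.36), Klf9 (0.47 and -0.97) and Sgk1 (0.23 and -0.14). The change of this difference between the days was tested: no member passed, 0.0361% of all genes did, and 2 members (with 20.1% of all genes) had an unadjusted limma p under 0.05. Day 14 minus day 7, this was -1.67 ± 0.45 for Dusp1 (adjusted p = 0.161), 3.07 ± 1.23 for Zbtb16 (0.201), 1.44 ± 1.17 for Klf9 (0.45) and 0.39 for Tsc22d3 (0.503). Of 14 immediate early genes, Fos, Junb and Ier2 were called lower for day 14 minus day 7, with 13 lower, 1 higher and a median of -1.51. The mean log2 level of these 14 genes was 9.63 to 9.91 at 8 h and 9.79 to 9.84 at 0 h on day 14, and 10.58 to 11.40 at 8 h and 9.10 to 9.81 at 0 h on day 7. Their part in the Dusp1 difference was not tested.

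At 0 h on days 7 and 14, where BXCL701 and vehicle tumours share the hour, none of the 6 members passed, against 0.512% of all genes (79 higher and 6 lower). Fkbp5 averaged 11.51 in BXCL701 tumours and 11.18 in vehicle tumours, a difference of 0.33 ± 0.16 (limma adjusted p = 0.471). Dusp1 averaged 9.58 in BXCL701 tumours and 10.09 in vehicle tumours, a difference of -0.51 ± 0.22 (adjusted p = 0.379), and was the 1 member at an unadjusted p under 0.05, against 10.8% of all genes. Tsc22d3 differed by 0.16, Sgk1 by -0.15, Zbtb16 by -0.06 and Klf9 by -0.22. The 0 h difference of Fkbp5 was 0.62 on day 14 and 0.04 on day 7, but the change between the days, 0.58, did not pass, nor did that of any member or gene (0.0%; no member and 2.77% of genes at an unadjusted p under 0.05). The BXCL701 libraries of 0 h also entered the 8 h comparison that was known when the members were chosen. Those of day 14, BXCL701 and vehicle, entered the day 14 comparison with vehicle, which was known then too. The 0 h differences are therefore not independent of that choice.

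With all 4 hours of day 7 averaged against the vehicle of that day, no member passed, and 0.00602% of genes, a single gene, did. Tsc22d3 averaged 10.20 in BXCL701 tumours and 9.56 in vehicle tumours, a difference of 0.64 ± 0.20 (limma adjusted p = 0.462). Dusp1 differed by 0.59 ± 0.25 and Fkbp5 by 0.44 ± 0.18 (adjusted p = 0.493 for both), and these 3 members had an unadjusted p under 0.05, as did 9.87% of all genes. The BXCL701 libraries of 0 h and 8 h on day 7 also entered the 8 h comparison that was known when the members were chosen. These differences and p-values are therefore not independent of that choice. Sgk1 differed by -0.22, Klf9 by -0.46 and Zbtb16 by -0.91. As a description, the corresponding values on day 14 were 0.77 for Fkbp5, 0.70 for Tsc22d3 and 1.42 for Zbtb16, with Dusp1, Klf9 and Sgk1 between -0.10 and 0.00 (3.29% of genes past the threshold), and on day 1 they lay between 0.28 for Sgk1 and 1.05 for Klf9 (0.0% of genes, with 2.63% at an unadjusted p under 0.05).

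Among vehicle tumours, no member passed between any 2 days, against 0.0602% of genes for day 14 over day 1 (0.0542% higher) and 0.0% for the other 2 pairs. Dusp1 averaged 10.46 on day 14 and 9.49 on day 1, a difference of 0.97 ± 0.32 (limma adjusted p = 0.209), which passed without vehicle day 14 replicate 3 (1.26, adjusted p = 0.0243). It was the 1 member at an unadjusted p under 0.05 there and for day 14 over day 7 (0.74); none was for day 7 over day 1. For those 3 pairs, 12%, 15.8% and 18.4% of genes had such a p. Vehicle libraries of days 1 and 14 also entered the comparisons with BXCL701 that were known when the members were chosen.

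Per1, a circadian clock gene that glucocorticoids induce directly, was also high at 1 and 8 h on day 1. Its day 1 values were 730.2, 1198 and 996 in vehicle tumours, 1813, 2336 and 1396 at 1 h, 1749, 2955 and 3427 at 8 h, and 1091, 838 and 792 at 16 h. It fell between 8 and 16 h, with a log2 difference of -1.54 ± 0.30 (limma adjusted p = 0.0167), and all 3 libraries of 16 h lay below those of 8 h. With 1 library left out its adjusted p lay between 0.0171 and 0.163, and the call held only without 8 h replicate 1. Among 20 other glucocorticoid-induced genes, 18 of them tested, Per1 was the 1 that passed in that comparison, with 6 higher and 12 lower and a median of -0.25, against 0.00 for all genes. At 1 h on days 7 and 14 Per1 differed by 0.85 ± 0.21 from 0 h (adjusted p = 0.801), and none of the 18 passed (9 higher and 9 lower, median 0.02).

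Zfp36, which encodes an mRNA-destabilising protein, was higher at 8 h than at 0 h on days 7 and 14 by 0.89 ± 0.16 (limma adjusted p = 0.00661), the 1 gene of the 18 to pass, with 14 higher, 4 lower and a median of 0.48. Per1 differed there by 0.91 ± 0.21 (0.0729), and Cebpd, a C/EBP transcription factor, by 0.57 ± 0.15 (0.144). Of the 16 clock genes, which include Per1, 5 passed for 8 h over 0 h: Dbp, Ciart, Tef and Nr1d1 were higher and Arntl was lower, with 13 higher and 3 lower in all and a median of 0.62. The part of the clock genes in the difference of any member was not tested. Lcn2, a neutrophil and epithelial iron-trapping protein, was higher in BXCL701 than vehicle tumours at 0 h by 2.53 ± 0.47 (adjusted p = 0.0128), and over all hours of day 14 by 2.77 ± 0.53 (0.00659). The Lcn2 call at 0 h was lost without vehicle day 7 replicate 2 (0.0618), vehicle day 14 replicate 1 (0.0747) or 2 (0.061), or BXCL701 day 14 at 0 h replicate 2 (0.0523), and that of day 14 without vehicle replicate 1 (0.0681) or 2 (0.221). The 12 neutrophil markers, which do not include Lcn2, lay higher in both comparisons, 12 of 12 each: 5 passed at 0 h (median 1.34) and 7 over all hours of day 14 (median 1.49). Their summed level at 0 h was 5775 to 7149 in BXCL701 tumours and 1954 to 2630 in vehicle tumours on day 14, and 3160 to 5749 in BXCL701 tumours and 2757 to 3300 in vehicle tumours on day 7. The part of these markers in the Lcn2 difference was not tested. No gene of the 18 passed in the 8 h minus 1 h, 16 h minus 0 h, day 7, day 1 or vehicle comparisons. All gene lists were chosen with earlier results of these data known. Calls on their genes, in any comparison, are therefore descriptions and no independent support.

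Few genes of the receptor's own pathway passed. Of 16 genes of the receptor pathway, all tested, the 1 that passed in any of the 14 comparisons was H6pd, which supplies NADPH to the corticosterone-forming enzyme, higher on day 14 by 0.59 ± 0.17 (limma adjusted p = 0.043), a call lost without any 1 of 9 of the 15 libraries, most clearly without vehicle replicate 2 (0.31, adjusted p = 0.914). Nr3c1, the receptor itself, read 1494, 1545 and 1092 at 8 h and 1064, 735 and 857 at 1 h of day 1, a difference of 0.64 ± 0.42 (adjusted p = 0.466), and differed by -0.16 between 1 and 0 h of days 7 and 14. Hsd11b1, which regenerates corticosterone inside cells, read 562, 747 and 697 at 16 h and 371, 326 and 221 at 8 h of day 1, with no overlap, but the difference of 1.15 ± 0.36 did not pass (adjusted p = 0.221).

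Across the 14 group means the members did not all share 1 pattern. Pearson's r was 0.90 between Tsc22d3 and Fkbp5, 0.66 between Zbtb16 and Klf9 and 0.21 between Tsc22d3 and Dusp1. Zbtb16 also stood at 0.61 with Fkbp5, 0.53 with Tsc22d3 and 0.44 with Sgk1, and Sgk1 at 0.56 with Klf9. All other pairs lay between -0.33 (Dusp1 and Zbtb16) and 0.26 (Fkbp5 and Klf9). These correlations are descriptions over 14 means of 3 mice each, and the means of Klf9 include the libraries of extreme transcript-length index given above. Among 12265 genes, the most like Tsc22d3 were Arrdc2 (0.94), Per1 (0.91) and Gnpda1 (0.90). The most like Fkbp5 were Per1 (0.83), Arrdc2 (0.83) and Hspa1a (0.82).

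Dusp1 was most like Pim3 (0.95), Fos (0.91) and Junb (0.90), of which Fos and Junb encode AP-1 subunits. In the 8 h tumours of day 7, where Dusp1 peaked, Fos read 5095, 12306 and 2295 and Pim3 read 2024, 1924 and 2258. Fos and Dusp1 shared the order of those 3 mice, replicate 2 highest and replicate 3 lowest. Pim3 had the opposite order, replicate 3 highest and replicate 2 lowest. Of 14 immediate early genes, Fos, Junb and Ier2 were the 3 that passed for 8 h over 0 h on days 7 and 14 together. For these 3 genes the 8 h difference was smaller on day 14 than on day 7, as given above. With 1 library left out, the Ier2 call was lost in 7 of 12 fits, and those of Fos and Junb held in all 12. Of 8 alternatives, 2 lost the Ier2 call, 1 that of Fos and 1 that of Junb. Egr1, Ier2, Fos and Nr4a1 passed, all higher, for 16 over 8 h of day 1, where Dusp1 differed by 0.86 and Tsc22d3 and Fkbp5 fell. All 4 calls of day 1 were lost without 16 h replicate 1 (limma adjusted p between 0.249 and 0.553), and each was lost without at least 2 other libraries.

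Sgk1 was most like Nup88 (0.85), Zfp174 (0.82) and Cog6 (0.82), over its small range of group means. Zbtb16 was most like Usp28 (0.90), Rnf150 (0.88) and Zfp709 (0.87), and Klf9 most like Jmy (0.95), Fermt2 (0.95) and Tmod3 (0.94). For the mean of the 6 scaled members the highest were Mfhas1 (0.87), Zfp108 (0.83), Pfkfb3 (0.83), Tigd2 (0.82) and Cblb (0.79).

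**Figure D4:**
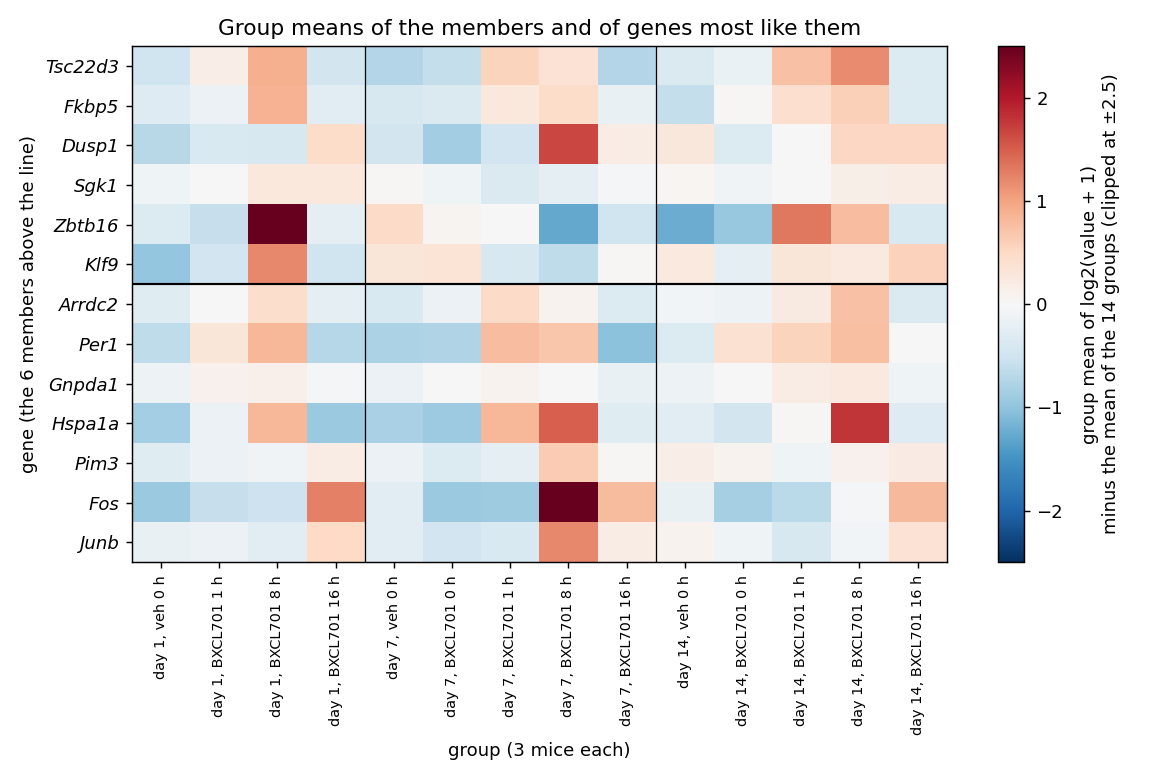
Group means of log2(deposited value + 1), each gene minus its mean over the 14 groups (colour, clipped at 2.5 log2 units), for the 6 members (above the line) and 7 genes most like Tsc22d3, Fkbp5 or Dusp1 (below it). Groups run along the horizontal axis by day and hour. Arrdc2 and Per1 share the 1 and 8 h columns of Tsc22d3, and Pim3, Fos and Junb share the day 7, 8 h column of Dusp1.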

How the data were processed

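RNA was measured in 42 Pan02 tumours of C57BL/6 mice (14 groups of 3). Per the submitters' processing notes, reads were trimmed with Trimmomatic 0.36 and aligned with Bowtie 0.12.9 to GRCm38; which program made the gene values, and with what annotation, scaling and strand setting, is not given in the sources used. The main values are the authors' deposited gene-level signal, which is not whole numbers, so that depth is unknown and a count test planned for whole values was replaced by limma. The authors also deposited log2 FPKM values, used as an alternative and for levels per length. No column belonged to an unlisted sample (0).

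Values were analysed as log2(value + 1), for 16613 genes reaching 10 in at least 3 libraries, with limma 3.58.1 (R 4.3.3; trend and robust options, 1 coefficient per group, 28 residual degrees of freedom) and Benjamini-Hochberg adjustment at 0.05, after a check on simulated data. Fold changes are on this log2 scale and understate those of low genes. Pairs of libraries correlated at 0.871 to 0.981, and none was a duplicate. The transcript-length index is the slope of a library's deviations on log2 exon length (GENCODE M21, 11487 genes). Each library has its own mouse, and replicate numbers pair nothing.

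The 6 members and all gene lists, among them 20 other glucocorticoid-induced genes, 16 receptor pathway genes, 14 immediate early genes, 16 clock genes, 12 neutrophil markers and the muscle, adipocyte and keratinocyte markers, were chosen with earlier results of these data known. Named beside the members were up to 4 genes past the threshold from each of the other glucocorticoid-induced and receptor pathway lists, always Nr3c1, Hsd11b1, Per1 and Cebpd, and the genes of highest correlation with each member. Immediate early and clock genes, the neutrophil genes named, Nr4a3, Pim3 levels, and the marker genes of the tissue check, were chosen after their values were seen. Alternatives were median-of-ratios scaling, a pseudocount of 5, no filter, the log2 FPKM table, the libraries of a comparison alone, tissue lists or the length index as covariates, each library left out, and, chosen after seeing the data, leaving out the 4 libraries of extreme length index.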

Additional observations from a re-analysis of the deposited data

How the results depend on the processing

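For members, over 8 alternatives other than leaving out a library, 20 of 360 values changed sign, 5 lost a call and 6 gained one, and the cause was not tested. With 1 library left out, 21 of 474 changed sign, 17 lost a call and 1 gained one; a group then has 2 mice and the fit pools the spread of all groups. Of the other named genes' values, 23 of 160 lost a call under the alternatives and 57 of 204 with 1 library left out. The count of members called at 1 h over 0 h was 0 in a fit of the libraries of the comparison alone, 0 with tissue list covariates, 0 without the 4 libraries of extreme length index, and 0 to 1 with 1 library left out. For 8 h over 1 h of day 1 it was 3 in the libraries of the comparison alone, where 2431 of 16613 genes passed, and 1 with tissue covariates (Fkbp5, 1.08). For 16 h over 8 h of day 1 it was 1 in the libraries of the comparison alone (Klf9; Tsc22d3 and Fkbp5 had adjusted p of 0.0508 and 0.0509) and 0 to 1 with 1 library left out, and with the log2 FPKM table Zbtb16 also passed (-2.24, adjusted p = 0.0343). For vehicle day 14 over day 1 it was 0 to 1, the 1 arising without vehicle day 14 replicate 3. The members' median for 8 h over 0 h was 0.87 without the 4 extreme libraries and 0.26 to 0.76 with 1 library left out.

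Signs that changed were mostly those of values near 0 and of Klf9 and Zbtb16. With tissue covariates these were Sgk1 (0.10) and Klf9 (0.40) for 1 h over 0 h, Zbtb16 (0.14) for 16 h over 0 h, Dusp1 (0.0639) for 8 h over 1 h, and Fkbp5 (0.0322) for the change of the 8 h difference between days. With the length index as covariate they were Klf9 (0.20) for 1 h over 0 h, Zbtb16 (0.0747) for 16 h over 0 h, Sgk1 for 8 h over 1 h (-0.0049) and for 16 h over 8 h (0.14), Sgk1 (-0.0797) and Klf9 (-1.24) for the change between days, Klf9 (0.72) on day 7, and Nr3c1 (-0.196) for 8 h over 1 h. Without the 4 extreme libraries they were Klf9 for 1 h over 0 h (0.0715), for the change between days (-0.22) and on day 7 (0.10), Zbtb16 (0.23) for 16 h over 0 h, and Nr3c1 (0.0418) for 1 h over 0 h. With median-of-ratios scaling they were Zbtb16 (0.0056) for 16 h over 0 h, Dusp1 (0.0008) for 8 h over 1 h and Sgk1 (0.0115) for 16 h over 8 h, and with the log2 FPKM table Dusp1 (0.0916) for 8 h over 1 h. With 1 library left out, Klf9 ranged from -0.45 to 0.36 and Nr3c1 from -0.32 to 0.0434 for 1 h over 0 h, Zbtb16 from -0.36 to 0.26 for 16 h over 0 h and from -0.37 to 0.29 for BXCL701 over vehicle at 0 h, Dusp1 from -0.13 to 0.14 for 8 h over 1 h, Sgk1 from -0.0723 to 0.0424 for 16 h over 8 h, and Fkbp5 from -0.554 to 0.016 for the change between days.

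Counts over all genes moved more: over the 8 alternatives, 0 to 76 genes against 22 for 8 h over 0 h, 0 to 2431 against 0 for 8 h over 1 h, 18 to 96 against 29 for 16 h over 8 h, 1 to 613 against 85 at 0 h, 1 to 2968 against 547 on day 14 and 0 to 301 against 10 for vehicle day 14 over day 1. With 1 library left out they ran from 6 to 807 at 0 h, 1 to 2021 on day 14, 0 to 1018 for vehicle day 14 over day 1 and 0 to 1296 (against 0) for vehicle day 14 over day 7. No paired analysis was possible because each library comes from its own mouse and the replicate numbers follow the order of the samples. Depth is unknown, and the spread of Zbtb16 and Klf9 between mice, larger than that of the other 4 members, limits what 3 mice a group can show.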
